A study of Mus musculus with 10 samples.

Results

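The 9 genes described here belong to the resting, or homeostatic, signature of microglia: Tmem119, Cx3cr1, Siglech, Gpr34, Olfml3, Sparc, Selplg, Fcrls and Slc2a5. They were taken by gene symbol from the 24421 different symbols of the count files, and each of the 9 was on 1 line. RNA seq was performed on microglia separated by density gradient from papain-dissociated cortex of 9-month-old mice, with 3 libraries of WT mice, 4 libraries of APP/PS1 mice and 3 libraries of APP/PS1 mice injected with N-AS (APP/PS1+N-AS), and each library was a pool of 2 mice. APP/PS1 mice carry transgenes for human amyloid precursor protein with the Swedish mutation and for a mutant presenilin-1, so that amyloid plaques form in the brain. N-AS is N-acetyl sphingosine, given subcutaneously at 30 mg per kg every day for 8 weeks from the age of 7 months, and the other APP/PS1 mice were given vehicle, while no injection is stated for WT mice. Both APP/PS1 groups carry the same transgenes, and no group of WT mice with N-AS was analysed here. The promoters that drive the transgenes are not given in the sources used here. The study asked how N-AS affects microglia in this model of Alzheimer's disease. The comparisons are APP/PS1 with WT, APP/PS1+N-AS with APP/PS1, and APP/PS1+N-AS with WT. They share libraries, so each is given with its own values.

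Microglia are the resident macrophages of the brain, and in the healthy brain they hold a set of genes on that other macrophages express weakly or not at all. This state depends on transforming growth factor beta and on the receptor for colony stimulating factor 1, and it is known to be turned down when microglia gather at amyloid plaques and switch on a disease-associated programme. Among the members, Cx3cr1 is the receptor for the neuronal chemokine fractalkine and Gpr34 is a receptor for lysophosphatidylserine. Siglech belongs to the family of sialic acid-binding lectins and signals through the adaptor encoded by Tyrobp. Selplg is the ligand of P-selectin and Fcrls is an Fc receptor-like scavenger receptor. Tmem119 is a membrane protein used to tell microglia from other macrophages, and Slc2a5 is a fructose transporter. Olfml3 and Sparc are secreted proteins of the extracellular matrix, and Sparc is also made by endothelial cells and fibroblasts.

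In GRCm38 (mm10) with the GENCODE M21 annotation the members lie on 7 chromosomes, and all are protein-coding. Tmem119 (chr5:113793729-113800516) and Selplg (chr5:113818536-113832644) are neighbours on the minus strand with 18020 bases between them. Fcrls (chr3:87250758-87263738, minus strand) and Olfml3 (chr3:103722222-103738001, minus strand) share a chromosome but are not neighbours. Cx3cr1 lies at chr9:119901616-120069879 on the minus strand, and its longest model spans several other genes but shares exon bases only with an antisense gene (78 bases) that the count files do not list. Siglech lies at chr7:55768178-55778925 on the plus strand, Sparc at chr11:55394500-55423183 on the minus strand and Slc2a5 at chr4:150119283-150144169 on the plus strand. Gpr34 (chrX:13632089-13640858, plus strand) sits on the X chromosome inside Cask, which runs on the opposite strand and shares no exon bases with it.

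The RefSeq promoter table of GRCm38.p6 (250 bases before to 50 bases after the start of each gene) held 6 of the 9 members, and had no entry for Tmem119, Gpr34 and Selplg. The PU box, GAGGAA on either strand, is the core of the sites of the myeloid factor PU.1, and it was found in 2 of the 6 (Siglech and Fcrls), while 28.3% of the 32851 promoters of the table held it. The longer form GAGGAAGT, which contains the PU box, was in 0 of the 6 (3.20% of all promoters), the palindrome GTCTAGAC bound by SMAD proteins was in 0 (0.213%) and TATAAA was in 1 of them, that of Fcrls (13.6%). The 2 promoters with a PU box and that of Cx3cr1, which has none, are shown because Fcrls gave the largest difference between APP/PS1 and WT below, Siglech one of the next, and Cx3cr1 was called in all fits of that comparison on the TMM scale. Capitals mark the PU box on the strand where it was found, so that TTCCTC stands for the box on the other strand. Siglech is at chr7:55767934-55768233 (plus strand), Fcrls at chr3:87263475-87263774 (minus strand) and Cx3cr1 at chr9:120068247-120068546 (minus strand), all written 5′ to 3′ along the gene.
Siglech: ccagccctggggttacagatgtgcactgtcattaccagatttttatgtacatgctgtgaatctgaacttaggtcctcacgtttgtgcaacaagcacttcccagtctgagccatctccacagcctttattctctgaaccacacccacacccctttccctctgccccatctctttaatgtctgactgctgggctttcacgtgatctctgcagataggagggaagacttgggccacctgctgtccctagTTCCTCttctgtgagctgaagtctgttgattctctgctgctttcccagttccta
Fcrls: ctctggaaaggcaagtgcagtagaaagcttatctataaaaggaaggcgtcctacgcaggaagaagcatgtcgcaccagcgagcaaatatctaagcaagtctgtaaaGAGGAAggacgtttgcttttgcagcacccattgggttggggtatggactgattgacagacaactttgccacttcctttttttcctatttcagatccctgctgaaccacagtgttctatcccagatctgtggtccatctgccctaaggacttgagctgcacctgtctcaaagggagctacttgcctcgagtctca
Cx3cr1: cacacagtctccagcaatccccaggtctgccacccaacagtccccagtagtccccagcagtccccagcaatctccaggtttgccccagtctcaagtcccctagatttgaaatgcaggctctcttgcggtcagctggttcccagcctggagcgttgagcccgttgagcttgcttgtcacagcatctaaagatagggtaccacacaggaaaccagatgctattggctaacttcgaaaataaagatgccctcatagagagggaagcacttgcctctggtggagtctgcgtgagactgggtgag
The GC content of the 6 promoters ran from 48.0% (Fcrls) to 65.3% (Slc2a5) beside a median of 52.7% over the table. The Slc2a5 promoter held 15 CG dinucleotides, the Siglech promoter held 2, and the median was 7. No feature searched for was shared by all 6 promoters.

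Depth ranged from 8805804 counts (WT replicate 1) to 19432075 counts (APP/PS1 replicate 4), and the members were well covered, from 85 counts of Slc2a5 in the shallowest library to 6962 counts of Sparc. Levels are given in CPM, the usual unit of counts relative to library size, with library sizes scaled by TMM, which assumes that most genes do not differ between libraries. The fractions held much RNA of other cells, since Snap25 of neurons was at 541 to 2544 CPM and Slc1a2 of astrocytes at 1593 to 2509 CPM, beside 119.7 to 265.5 CPM of Cx3cr1. A CPM is therefore a share of the RNA of a mixed fraction, and more microglia in a fraction and more RNA of the gene in each microglial cell cannot be told apart. WT replicate 3 had the highest Snap25, and the 5 fibroblast genes summed to 508 CPM in APP/PS1 replicate 3 and to 102 to 168.8 CPM elsewhere. The methods state that male mice were used, but Xist was at 453 to 579 CPM in the 4 APP/PS1 libraries and in 2 of the 3 APP/PS1+N-AS libraries, and at 1.59 to 4.40 CPM in the WT libraries and in APP/PS1+N-AS replicate 3. The 4 Y-linked genes listed (Ddx3y, Kdm5d, Eif2s3y and Uty) went the other way, with lower levels in APP/PS1 than in WT. Their lowest log2 difference was -3.29, and 0 of them were called lower. Genotype and these sex-linked transcripts cannot be told apart in APP/PS1 against WT, and Gpr34 is itself X-linked.

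The members differed widely in level and kept their order. Sparc was the highest, Cx3cr1 the second, Siglech the third, Tmem119 the eighth and Slc2a5 the last in each of the 10 libraries, and Gpr34, Olfml3, Selplg and Fcrls exchanged the places between. Per kilobase of the principal transcript, the WT means were 71.0 CPM for Sparc, 29.7 for Siglech, 29.6 for Cx3cr1, 21.4 for Selplg, 18.05 for Gpr34, 17.0 for Fcrls, 11.2 for Tmem119, 5.87 for Olfml3 and 3.796 for Slc2a5. Siglech (23.4 to 39.99 CPM per kilobase in the WT libraries) and Cx3cr1 (26.6 to 32.7) overlapped, as did Selplg (18.6 to 26.7), Gpr34 (15.4 to 22.8) and Fcrls (14.07 to 21.996). Selplg also reached the ranges of Siglech and Cx3cr1, and Tmem119 (9.17 to 14.09) reached that of Fcrls. Sparc (64.5 to 80.03) stood clear of all other members and Slc2a5 (2.65 to 5.54) overlapped only Olfml3 (4.26 to 8.42). The place of Olfml3 depends on its gene model, since the GENCODE transcript has 5465 bases and the whole RefSeq gene spans 2608 bases. The places of Selplg and Siglech depend on the model too. Per kilobase of all exons of the gene, their WT means were 9.30 and 18.8 CPM, beside 29.5 for Cx3cr1 and 10.8 for Tmem119.

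In APP/PS1 compared with WT, 7 of the 9 members were higher on the TMM scale, by 1.87-fold to 3.01-fold, and the 2 that were not called were Tmem119 and Slc2a5 (edgeR's quasi-likelihood test, Benjamini-Hochberg adjusted p below 0.05). Of all 18727 genes tested, 2.67% were called higher. The median log2 difference of the members was 0.93 and that of all genes was -0.074. For the same 7 members, no APP/PS1 library overlapped any WT library, which was the case for 8.15% of all genes in this direction.

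The receptors and surface proteins gave most of these differences. Fcrls was at 31.97, 33.6 and 49.997 CPM in WT replicates 1 to 3, at 102.7, 123, 154.8 and 84.0 CPM in APP/PS1 replicates 1 to 4, and at 74.0, 84.2 and 62.7 CPM in APP/PS1+N-AS replicates 1 to 3. The lowest APP/PS1 library of Fcrls thus stood above the highest WT library, and the log2 difference was 1.59 ± 0.24 (SE), a 3.01-fold higher mean, with an adjusted p of 0.00500. Siglech was at 50.04, 85.5 and 54.9 CPM in WT, at 213, 155.0, 180.8 and 118.1 CPM in APP/PS1 and at 126.8, 118.6 and 79.1 CPM in APP/PS1+N-AS. WT replicate 2 stood above the other 2 WT libraries, all APP/PS1 libraries stood above it, and Siglech differed by 1.39 ± 0.26 on the log2 scale between APP/PS1 and WT (2.62-fold, adjusted p = 0.0176). Gpr34 was at 33.3, 32.2 and 47.6 CPM in WT, at 78.5, 84.0, 130.8 and 102.4 CPM in APP/PS1 and at 61.9, 68.2 and 58.1 CPM in APP/PS1+N-AS. Its 3 groups did not overlap one another, and the difference between APP/PS1 and WT was 1.39 ± 0.21 on the log2 scale (2.62-fold, adjusted p = 0.00500).

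Cx3cr1 was at 119.7, 132 and 147 CPM in WT, at 265, 246, 262 and 221 CPM in APP/PS1 and at 179, 205 and 168.6 CPM in APP/PS1+N-AS. The 3 groups of the fractalkine receptor were also apart, and the log2 difference of 0.90 ± 0.14 between APP/PS1 and WT amounted to 1.87-fold (adjusted p = 0.00685). Selplg was at 34.6, 35.0 and 49.6 CPM in WT, at 66.3, 73.9, 78.8 and 79.9 CPM in APP/PS1 and at 64.6, 77.0 and 46.5 CPM in APP/PS1+N-AS. APP/PS1+N-AS replicates 1 and 2 of Selplg lay within or close to the APP/PS1 range and replicate 3 lay within the WT range. The 5 neutrophil genes, which share Selplg with microglia, summed to 93.2 CPM in APP/PS1 replicate 3 and to 2.95 to 17.02 CPM in the other libraries, and their part in the Selplg level was not tested. The difference between APP/PS1 and WT was 0.91 ± 0.19 on the log2 scale (1.88-fold, adjusted p = 0.0277).

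The secreted members were higher as well. Olfml3 was at 23.3, 26.9 and 46.0 CPM in WT, at 92.5, 97.9, 75.1 and 70.5 CPM in APP/PS1 and at 64.2, 74.1 and 51.2 CPM in APP/PS1+N-AS. The difference of 1.38 ± 0.24 on the log2 scale between APP/PS1 and WT corresponds to 2.604-fold (adjusted p = 0.0123). Sparc was at 148, 184.1 and 157.8 CPM in WT, at 268, 271, 371 and 331 CPM in APP/PS1 and at 222, 247 and 175.4 CPM in APP/PS1+N-AS. Its difference was 0.93 ± 0.18 on the log2 scale (1.90-fold, adjusted p = 0.0200), and its highest library, APP/PS1 replicate 3, was also the one with the high fibroblast sum. The 10 endothelial genes summed to 723 CPM in WT replicate 3 and to 1365 to 1916 CPM in the other libraries. The part of other cells in the Sparc level was not tested.

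Tmem119 and Slc2a5 differed less. Tmem119 was at 20.6, 23.0 and 31.6 CPM in WT, at 35.9, 37.6, 40.03 and 28.8 CPM in APP/PS1 and at 30.6, 34.4 and 25.4 CPM in APP/PS1+N-AS, so that APP/PS1 replicate 4 fell below WT replicate 3. Its log2 difference between APP/PS1 and WT was 0.50 ± 0.18 (1.41-fold, adjusted p = 0.181). Slc2a5 was at 10.1, 8.36 and 17.5 CPM in WT, at 13.2, 13.4, 22.9 and 17.5 CPM in APP/PS1 and at 11.7, 13.9 and 11.5 CPM in APP/PS1+N-AS. The 3 groups of this lowest member overlapped, and its log2 difference was 0.47 ± 0.27 (adjusted p = 0.419). For both genes the highest WT library was replicate 3, and without it Tmem119 was called and 8 members in all were higher.

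**Figure D1:**
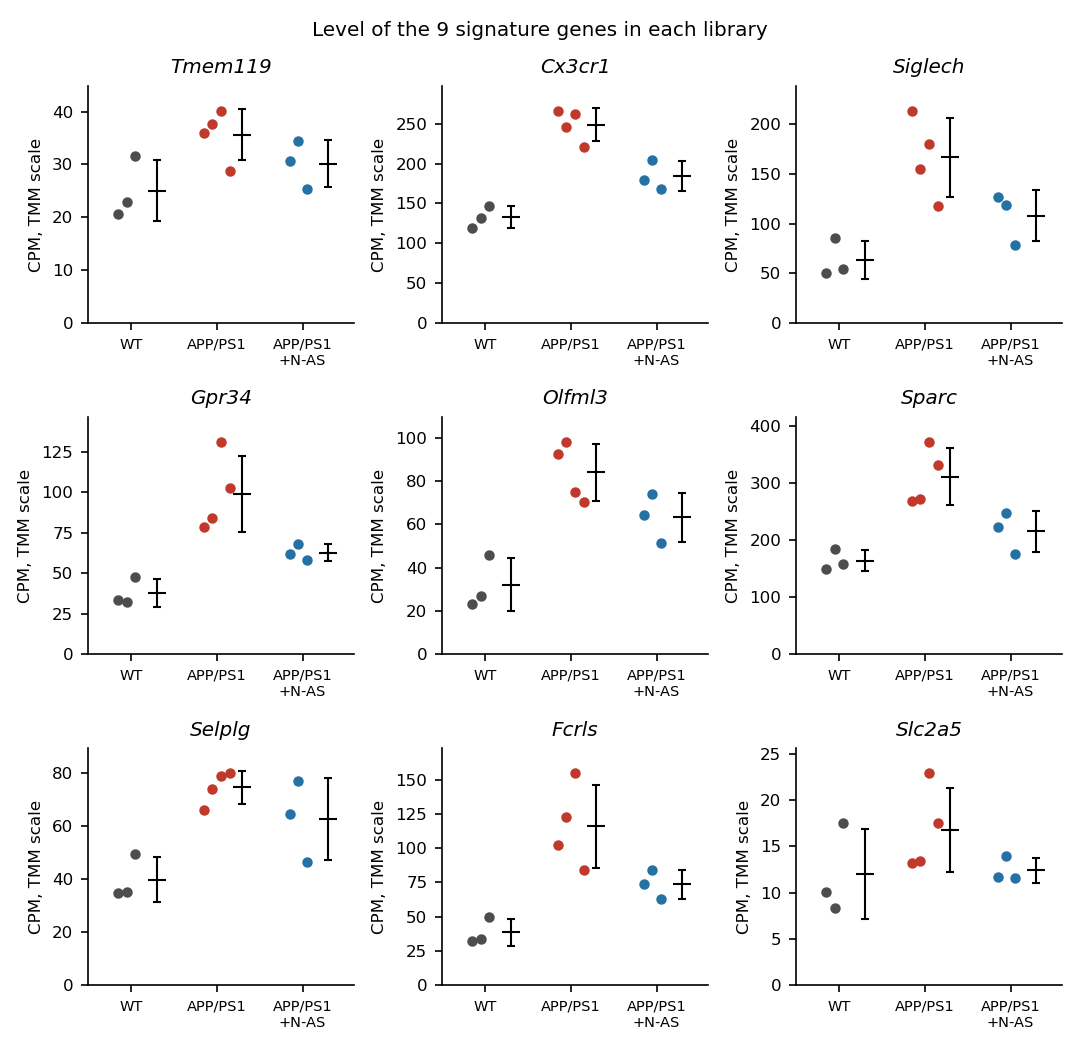
Level of each member in every library (vertical axis, CPM on the TMM scale, from 0) for WT (3 libraries), APP/PS1 (4) and APP/PS1+N-AS (3). Points are libraries, and the black mark with its bar is the mean ± SD. In 7 panels the APP/PS1 points lie above all WT points, while in the panels of Tmem119 and Slc2a5 they overlap.

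These calls differed in how far they depended on single libraries. Cx3cr1, Gpr34 and Fcrls were called higher in all 9 alternative settings and in all 7 fits that left out a library. The count fell to 4 without WT replicate 1 and to 4 without APP/PS1 replicate 3, where Siglech, Sparc and Selplg were no longer called in either case. Of the 7 fits without a library, Olfml3 was called in 6, Siglech in 5, Sparc in 4 and Selplg in 2, where its adjusted p reached 0.102. Within the libraries numbered 1 to 6 and within those numbered 7 to 10, all 9 members were higher in APP/PS1 than in WT, by 0.53 to 1.92 and by 0.10 to 1.41 on the log2 scale. These numbers come from the labels, and whether they mark a batch is not stated.

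The members were set beside genes that all myeloid cells express, of which 16 of 18 had higher calls in the same comparison, with a median log2 difference of 1.47. Aif1, which encodes the marker Iba1, differed by 1.76 ± 0.25 on the log2 scale, Itgam, the integrin chain CD11b, by 1.20 ± 0.16, Ptprc, the common leukocyte antigen CD45, by 2.12 ± 0.24, and Csf1r, the receptor for colony stimulating factor 1, by 1.32 ± 0.19. The summed level of the 9 members was 545 ± 66.5 CPM (SD, n = 3) in WT, 1152 ± 115 CPM (n = 4) in APP/PS1 and 812 ± 124 CPM (n = 3) in APP/PS1+N-AS. As a percent of the pan-myeloid sum of the same library, it was 73.4, 82.2 and 75.0% in WT, 66.6, 63.3, 61.6 and 54.3% in APP/PS1, and 60.4, 60.1 and 67.6% in APP/PS1+N-AS. All 7 transgenic libraries were below the 3 WT libraries by this measure, and the APP/PS1 and APP/PS1+N-AS libraries overlapped. This percent was chosen after the values were seen and is given without a test. Sparc (means of 163 CPM in WT and 310 CPM in APP/PS1) and Cx3cr1 (133 and 249 CPM) weigh most in the member sum. The percent therefore need not hold for each member.

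**Figure D2:**
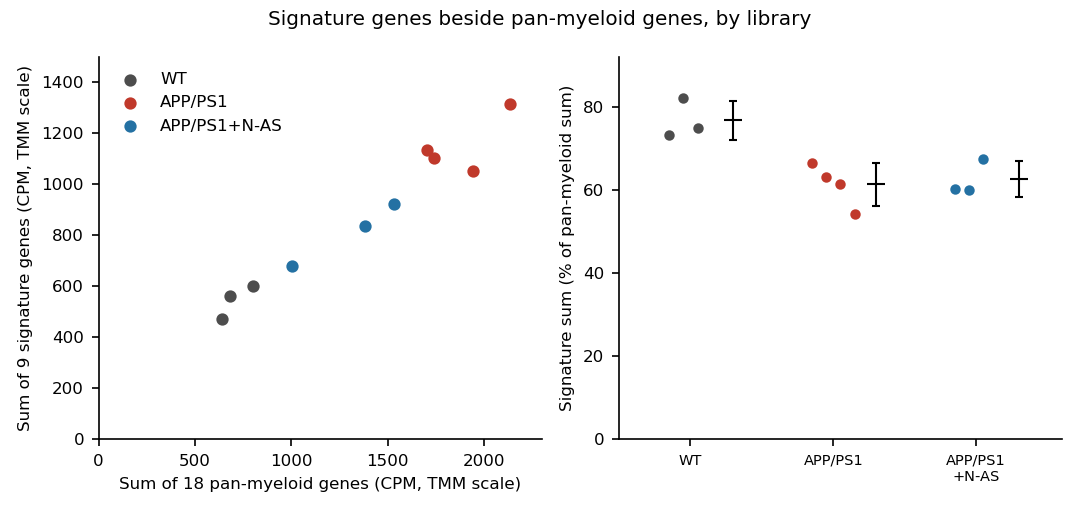
Left, the summed level of the 9 members (vertical axis) against the sum of the 18 pan-myeloid genes (horizontal axis), both in CPM on the TMM scale, with 1 point for each library. Right, the first sum as a percent of the second by group, with the mean ± SD in black. The members are higher where the pan-myeloid genes are higher, but their sum equals 54.3 to 67.6% of the pan-myeloid sum in the transgenic libraries and 73.4 to 82.2% in the WT libraries.

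On a scale that holds the geometric mean of the 18 pan-myeloid genes level across the libraries, no member was called higher in APP/PS1 than in WT and 4 of the 9 were called lower. On this pan-myeloid scale the median of all genes moved to -1.49 and 89.4% of the genes were called lower, so that a lower call of a member is read against that share. Their differences lay at the 90.3 to 99.0 percentiles of those of all genes. Tmem119 fell by 0.90 ± 0.21 on the log2 scale (adjusted p = 0.00125) and Slc2a5 fell by 0.94 ± 0.25 (adjusted p = 0.00261). Both were called in all 8 alternative settings and in all 7 fits that left out a library. Of the 18 pan-myeloid genes themselves, 3 were called higher and 4 lower on this scale. The lowest of these 18 genes fell further than Tmem119 and Slc2a5 did. The p-values take the scaling as exact, and whether the pan-myeloid genes hold their level in each cell was not tested. Selplg fell by 0.50 ± 0.19 (adjusted p = 0.0238) and Sparc fell by 0.52 ± 0.23 (adjusted p = 0.0444), but of the 7 fits without a library Selplg was called in 2 and Sparc in 1, and without WT replicate 1, APP/PS1 replicate 3 or APP/PS1 replicate 4 there were 2 members left. The difference of Cx3cr1 was -0.51 ± 0.24 (adjusted p = 0.0538), and it was called in 4 of the 8 alternative settings (adjusted p from 0.00871 to 0.251). Siglech (-0.032 ± 0.29), Gpr34 (-0.040 ± 0.21), Olfml3 (0.014 ± 0.25) and Fcrls (0.18 ± 0.23) were not called, with values near those of the pan-myeloid genes, whose median was 0.056.

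Each member was also divided by Tmem119 of its own library, which needs no scaling between libraries. Fcrls was 1.55, 1.46 and 1.58 times Tmem119 in WT, 2.86, 3.27, 3.87 and 2.92 times in APP/PS1, and 2.42, 2.45 and 2.47 times in APP/PS1+N-AS. The 3 groups of this ratio did not overlap, and the APP/PS1+N-AS libraries lay between the others. Gpr34 was 1.40 to 1.62 times Tmem119 in WT, 2.19 to 3.55 times in APP/PS1 and 1.98 to 2.29 times in APP/PS1+N-AS. Olfml3 was 1.13 to 1.46 times Tmem119 in WT, 1.88 to 2.604 times in APP/PS1 and 2.01 to 2.16 times in APP/PS1+N-AS. Of the 8 ratios, 6 were higher in all APP/PS1 libraries than in all WT libraries, beside 1.5% of all other genes tested, and 5 were higher in all APP/PS1+N-AS libraries than in all WT libraries, beside 1.27%. The ratio of Fcrls was the only 1 of the 8 that was lower in all APP/PS1+N-AS libraries than in all APP/PS1 libraries, beside 1.34% of all other genes. Sparc and Slc2a5 overlapped between all groups, with Slc2a5 at 0.364 to 0.554 times Tmem119 in WT and at 0.356 to 0.607 times in APP/PS1. Tmem119 was picked as the divisor with its values known, so these ratios are descriptions. Its own difference in APP/PS1 against WT lay at the 90.4 percentile of all genes on the TMM scale, so most other genes rose less than it did. The share of such ratios among the pan-myeloid genes was not counted.

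**Figure D3:**
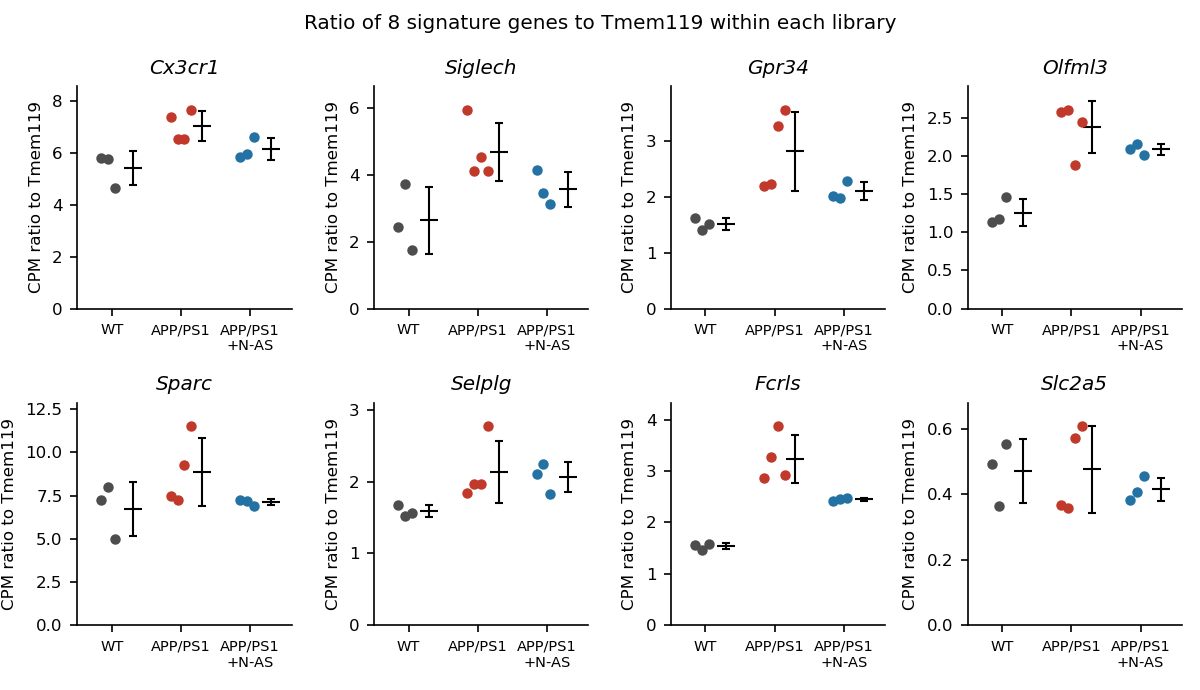
Ratio of the CPM of 8 members to that of Tmem119 in the same library (vertical axis, no unit, from 0) by group, with points for libraries and the mean ± SD in black. The Fcrls points form 3 separate groups, at 1.46 to 1.58 in WT, 2.42 to 2.47 in APP/PS1+N-AS and 2.86 to 3.87 in APP/PS1, while those of Sparc and Slc2a5 overlap.

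In APP/PS1+N-AS compared with APP/PS1, all 9 members had lower means on the TMM scale, with log2 differences from -0.66 to -0.24, and 0 of them passed the test (edgeR's quasi-likelihood test). At an unadjusted p under 0.05 there were 5 members (Cx3cr1, Siglech, Gpr34, Sparc and Fcrls), beside 4.05% of all genes in this direction. No gene of the 18727 was called lower (0%), and DESeq2 and limma called 0 members too. Gpr34 had a difference of -0.66 ± 0.20 (adjusted p = 0.494), Fcrls of -0.66 ± 0.23 (adjusted p = 0.509), Siglech of -0.62 ± 0.26 (adjusted p = 0.531), Sparc of -0.53 ± 0.18 (adjusted p = 0.509) and Cx3cr1 of -0.43 ± 0.14 (adjusted p = 0.498). All APP/PS1+N-AS libraries were below all APP/PS1 libraries for Cx3cr1, Gpr34 and Sparc, which is 3 of 9 members beside 6.46% of all genes. Slc2a5 (-0.43 ± 0.27), Olfml3 (-0.41 ± 0.23), Selplg (-0.25 ± 0.19) and Tmem119 (-0.24 ± 0.18) overlapped between the groups. In pairs of the same replicate number, 7 of the 9 members were lower in APP/PS1+N-AS in each of the 3 pairs, beside 19.3% of all genes, and Selplg and Slc2a5 were lower in 2 of the 3. The labels state no pairing, so these pairs are given only as a description.

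The pan-myeloid genes had lower means in the same direction, with a median of -0.51 over the 18 genes and 0 called. Tyrobp had a difference of -1.07 ± 0.24 and was not called. On the pan-myeloid scale the members differed by -0.13 to 0.29 and 0 were called, while the median of all genes was 0.55 and 0% of the genes were called higher. The largest of these differences were those of Tmem119 (0.29 ± 0.21, adjusted p = 0.298) and Selplg (0.26 ± 0.19, adjusted p = 0.296). Selplg was at 56.7 to 62.0 CPM of this scale in APP/PS1+N-AS and at 45.2 to 53.1 in APP/PS1, without overlap. The share of all genes without overlap on this scale was not counted. The difference of Selplg (0.26) lay below the median of all genes (0.55), so most genes rose more than Selplg did on this scale. On the TMM scale each of the 9 members was at its lowest of the group in APP/PS1+N-AS replicate 3, the library with the low Xist level, and so was their sum with 679 CPM beside 835 and 923 CPM. The same library was, on the pan-myeloid scale, the highest of the group for 7 of the 9 members and the lowest for 0. Without it, all 9 members still had lower means than in APP/PS1 and 0 were called. Within the libraries numbered 1 to 6 the differences were -0.57 to 0.012, with 1 member of 9 above 0, and within those numbered 7 to 10, which hold only replicate 3 of APP/PS1+N-AS, they were -0.998 to -0.42.

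In APP/PS1+N-AS compared with WT, all 9 members had higher means on the TMM scale, with a median log2 difference of 0.66, and 0 passed the test, with 0.176% of all genes called higher. At an unadjusted p under 0.05 there were 6 members beside 3.64% of all genes, DESeq2 called 2 (Olfml3 and Fcrls) and limma called 0. Olfml3 had the largest difference (0.97 ± 0.25, adjusted p = 0.284), followed by Fcrls (0.93 ± 0.24, adjusted p = 0.295), Siglech (0.77 ± 0.27, adjusted p = 0.596) and Gpr34 (0.73 ± 0.21, adjusted p = 0.393). Cx3cr1, Gpr34, Olfml3 and Fcrls were higher in all APP/PS1+N-AS libraries than in all WT libraries, beside 4.9% of all genes. Selplg differed by 0.66 ± 0.20, Cx3cr1 by 0.47 ± 0.15, Sparc by 0.39 ± 0.19, Tmem119 by 0.26 ± 0.19 and Slc2a5 by 0.040 ± 0.29. Within the libraries numbered 1 to 6 all 9 members were higher than in WT, and within those numbered 7 to 10, with 1 library a group, 6 of 9 were. Without WT replicate 3, the library with much neuronal RNA, Olfml3 was called. On the pan-myeloid scale Tmem119 fell by 0.61 ± 0.23 (adjusted p = 0.0338) and Slc2a5 fell by 0.80 ± 0.27 (adjusted p = 0.0241), beside 67.6% of all genes called lower and a median of -0.90. Without APP/PS1+N-AS replicate 1 or replicate 2 neither was called, and the lower calls over all genes went from 12664 to 1 in both cases. In the other fits, without any 1 of the WT libraries 1 member was called. Lower calls over all genes were then 6918 of 19171 (without WT replicate 1), 6956 of 19167 (without replicate 2) and 13113 of 19112 (without replicate 3). Without APP/PS1+N-AS replicate 3 there were 4 members lower, beside 14293 of 19914 genes. Of the 6 fits without a library, Slc2a5 was called in 3 and Tmem119 in 1.

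**Figure D4:**
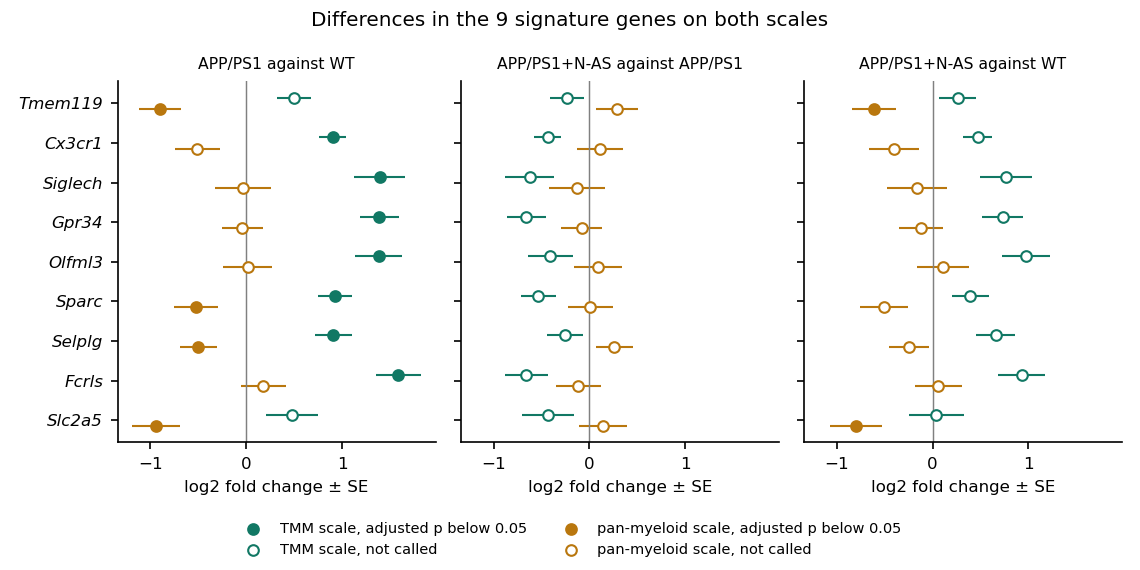
Log2 fold change ± SE of the 9 members (rows) in the 3 comparisons (panels), on the TMM scale in green and on the pan-myeloid scale in brown, with filled points where the adjusted p was below 0.05. On the TMM scale 7 members are called in APP/PS1 against WT and none in the other comparisons. On the pan-myeloid scale Tmem119 and Slc2a5 are called lower in both transgenic groups against WT, and Selplg and Sparc in APP/PS1 only. Of all genes, 89.4% are called lower on that scale in APP/PS1 against WT and 67.6% in APP/PS1+N-AS against WT.

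Other genes of the homeostatic state were described from a list of 30, of which 29 were tested. In APP/PS1 compared with WT, 10 of them were higher on the TMM scale and 0 lower, with a median log2 difference of 0.49, while that of the members was 0.93. Serpine2, a secreted protease inhibitor, differed by 1.78 ± 0.22 and Golm1, a Golgi membrane protein, by 1.01 ± 0.13. The purine receptors P2ry12 (0.36 ± 0.19, adjusted p = 0.377) and P2ry13 (0.32 ± 0.20, adjusted p = 0.464) and the transcription factor Sall1 (0.43 ± 0.13, adjusted p = 0.122), which are also typical of resting microglia, were not called. P2ry12 was at 61.8 to 90.5 CPM in WT, at 78.5 to 119.8 CPM in APP/PS1 and at 65.0 to 88.4 CPM in APP/PS1+N-AS, so that all groups overlapped. Relative to the pan-myeloid genes, 21 of the 29 were called lower in APP/PS1 than in WT, beside 89.4% of all genes, among them Bin1, a membrane-bending protein (-1.88 ± 0.29), Ecscr (-1.53 ± 0.27) and P2ry13 (-1.10 ± 0.20). Against WT on the same scale, 13 of the 29 were lower in APP/PS1+N-AS, beside 67.6% of all genes, including P2ry13 (-0.89 ± 0.22) and Bin1 (-1.07 ± 0.31). Bin1 is also expressed in neurons and oligodendrocytes. Between APP/PS1+N-AS and APP/PS1, 0 of the 29 were called on either scale by edgeR, with 8 at an unadjusted p under 0.05 on the TMM scale, all lower (4.05% of all genes), and 4 on the pan-myeloid scale, all higher (40.4% of all genes).

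Of 22 disease-associated microglial genes listed for contrast, 19 were higher in APP/PS1 than in WT with a median log2 difference of 2.15, while that of the members was 0.93. On the pan-myeloid scale 11 of the 22 were higher and 4 lower, whereas 0 of the 9 members were higher and 4 lower, beside 0.459% of all genes higher and 89.4% lower.

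Ligands, adaptors and regulators of the members were higher for 5 of 21 genes and lower for 0 in APP/PS1 compared with WT, beside 2.67% of all genes higher and 0.796% lower. Tyrobp, the adaptor of Siglech, was at 5.76 to 9.79 CPM in WT, at 64.0 to 90.8 CPM in APP/PS1 and at 25.0 to 43.0 CPM in APP/PS1+N-AS. It differed by 3.396 ± 0.28 on the log2 scale between APP/PS1 and WT (adjusted p = 0.000379), more than any member, and it was called in APP/PS1+N-AS against WT as well (2.33 ± 0.28, adjusted p = 0.0160). Csf1 (1.53 ± 0.26) and Tgfb1 (1.36 ± 0.21), which encode growth factors of microglia, were higher in APP/PS1 than in WT. Il34, the other ligand of the receptor Csf1r, had a difference of -0.38 ± 0.16 (adjusted p = 0.265). Cx3cl1, the fractalkine bound by Cx3cr1, differed by -0.35 ± 0.25 (adjusted p = 0.532) and Selp, the P-selectin bound by Selplg, by -0.22 ± 0.49 (adjusted p = 0.867). The transcription factor Mef2c (-0.068 ± 0.27) was not called, and the signs of Cx3cl1, Selp and Mef2c were not the same under all settings.

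Of 33 genes tested that are relatives of the members by family, 1 was higher in APP/PS1 than in WT (Siglecf, named because it was the only one, 2.74 ± 0.51 on the log2 scale, adjusted p = 0.0161) and 0 were lower, beside the same 2.67% and 0.796% of all genes. Sparcl1, the relative of Sparc with the highest level, was at 776 to 1284 CPM over all libraries and differed by -0.13 ± 0.24. Olfml2a differed by -0.17 ± 0.33 and Slc2a1, the glucose transporter of endothelial cells and glia, by 0.19 ± 0.33, and both changed sign when a WT library was left out. The most highly counted relatives of Siglech, Fcrls and Gpr34 were Cd22 (37.8 to 215 CPM), Fcrl6 (8.09 to 31.6 CPM) and Gpr174, which was called in no comparison. Gpr174 is known from lymphocytes, yet it was counted at 395 to 1927 CPM, above Gpr34 in every library, and the source of these counts was not tested.

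**Figure D5:**
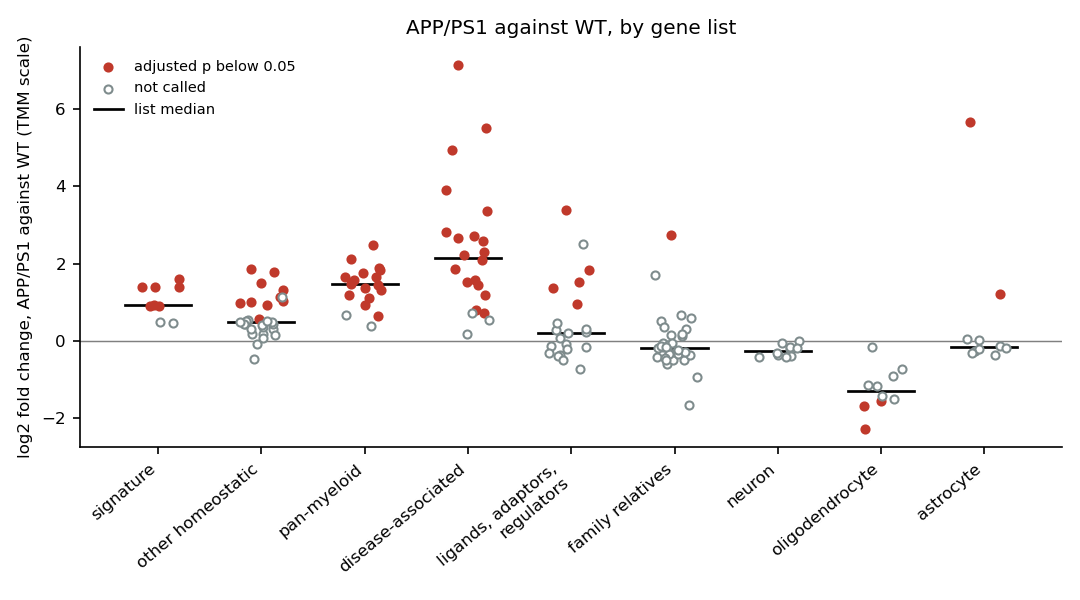
Log2 fold change (vertical axis) in APP/PS1 against WT on the TMM scale of each tested gene (points) of the 9 lists along the horizontal axis, with filled points where the adjusted p was below 0.05 and a line at the median of each list. The member median of 0.93 lies above that of the other homeostatic genes (0.49) and below those of the pan-myeloid (1.47) and disease-associated genes (2.15).

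Among markers of other cells, 3 of 10 oligodendrocyte genes were lower in APP/PS1 than in WT on the TMM scale, beside 0.796% of all genes, and 2 of 10 astrocyte genes were higher, while 0 of 10 neuronal, 0 of 10 endothelial, 0 of 8 mural, 0 of 5 fibroblast, 0 of 5 oligodendrocyte precursor, 0 of 8 border macrophage, 0 of 5 monocyte, 0 of 4 neutrophil and 0 of 5 lymphocyte genes were called. The 5 fibroblast genes, which share Sparc with microglia, summed to 102 to 167.4 CPM in WT and to 105 to 508 CPM in APP/PS1. The 10 oligodendrocyte genes summed to 2376 to 6722 CPM in WT, 1875 to 4621 CPM in APP/PS1 and 2818 to 3815 CPM in APP/PS1+N-AS. Border macrophage genes such as Mrc1, which share Cx3cr1 with microglia, summed to 88.0 to 108 CPM in WT and 106.5 to 125 CPM in APP/PS1. The part of these cells in the member levels was not tested.

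Across the 10 libraries the genes whose log2 levels were most like the mean of the members were Il10ra, a receptor chain for interleukin-10 (r = 0.989), Mir6983, a microRNA gene (0.986), Vav1, a signalling protein of blood cells (0.986), Aif1 (0.985) and Csf1r (0.984). These values share libraries and the differences between the groups, and after the group means were removed they were 0.980, 0.905, 0.919, 0.894 and 0.950. Among the members, Fcrls (r = 0.978) and Cx3cr1 (0.977) were the most like the mean of the other members and Slc2a5 (0.670) the least, and Siglech had the lowest value once the group means were removed (0.186).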

How the data were processed

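Members and gene lists were chosen with earlier results of these data known. The authors separated cortical microglia, depleted ribosomal RNA, made stranded libraries and aligned paired reads with TopHat. The deposited values are raw counts per gene, without normalization. The submitters' processing notes name TopHat, edgeR and mm10, and versions are not given in the sources used here. Lines sharing a symbol (103 lines, 43 symbols) were summed. A library held 8805804 to 19432075 counts, with 85 to 6962 counts of a member. Low counts were removed with edgeR's filter by expression, which left 18727 genes, all 9 members included.

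Groups and replicate numbers follow the labels. One model with the 3 groups was fitted over all 10 libraries with edgeR 4.0.16 (R 4.3.3), by the quasi-likelihood test with Benjamini-Hochberg adjustment over all genes and an alpha of 0.05. SE is the absolute log2 fold change divided by the root of the F statistic. Libraries were scaled by TMM or, on the pan-myeloid scale, by the geometric mean of the counts (plus 0.5) of 18 pan-myeloid genes. The fits were run on simulated counts with known changes in genes outside the pan-myeloid list. That run cannot test whether the pan-myeloid genes hold their level. The paper states no count test, and its FPKM with quantile normalization was approached by limma 3.58.1 on quantile-normalized counts. Alternatives were other scalings, DESeq2 1.42.0, 2 filters (none, and at least 10 counts in each library), a replicate block, the library numbers as a term, the 2 groups alone and leaving out each library. Deviations of same-numbered libraries had a mean r of 0.243 over 3 pairs in APP/PS1+N-AS and APP/PS1 (lowest 0.142), beside -0.082 for different numbers. In APP/PS1+N-AS and WT the mean was 0.151 (lowest -0.136) beside -0.075, and in APP/PS1 and WT it was -0.0182 beside 0.0058. The labels state no pairing, and same-numbered libraries lie in the same set of library numbers (1 to 6 or 7 to 10). A pairing was therefore not established. Each library is a pool of 2 mice, and nothing says how the pools were made, so p-values measure the spread between libraries.

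Named genes were the members, fixed genes of each list, the called genes of 2 lists with the lowest adjusted p and the family relatives with the highest mean level. Not in the files under these names were Vsir, Lrrc33 and Ly6g. Coordinates and exons come from GENCODE M21 and promoters from RefSeq (GRCm38.p6), counted without those of 1 chromosome. A few genes that this rule names are not reported here.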

Additional observations from a re-analysis of the deposited data

Results flagged for a closer look

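Of 72 sets of 4 APP/PS1 values examined (named genes on both scales), 1 had a library far from the others. Il34 on the TMM scale was lower in APP/PS1 replicate 3 (7.72 CPM) than in the other 3 libraries of the group (9.23 to 9.42 CPM), a gap of 0.891 of the group's whole range. Chance gives about 1 in 20 sets. None of the 9 members had such a library, and groups of 3 were not examined.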

How the results depend on the processing

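The 7 calls in APP/PS1 against WT on the TMM scale were 5 to 7 in the other settings and 4 to 8 when a library was left out. In APP/PS1+N-AS against WT the count of 0 became 2 with DESeq2 and ran from 0 to 1 without a library. On the pan-myeloid scale the 4 calls in APP/PS1 against WT were 2 to 5 in the other settings (2 with the replicate block) and ran from 2 to 3 without a library, and the 2 in APP/PS1+N-AS against WT became 0 with the block and 0 with the 2 groups alone and ran from 0 to 4. In APP/PS1+N-AS against APP/PS1 the block changed no member call. In APP/PS1 against WT the block took the TMM count to 5 by loss of Sparc and Selplg. Over all genes, the 500 higher and 149 lower calls (APP/PS1 against WT, TMM) became 870 and 492 with DESeq2, 751 and 304 with library numbers, 250 and 76 with the block and 354 and 56 with the 2 groups alone. The 33 higher calls of APP/PS1+N-AS against WT became 160 with DESeq2, 57 with library numbers, 18 with limma, 4 with the block and 1 with the 2 groups alone. The 0 calls of APP/PS1+N-AS against APP/PS1 became 21 higher and 58 lower with DESeq2. On the pan-myeloid scale these 0 calls became up to 6849 higher (scaling on 4 genes), 0 of them members.

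Signs turned for the following values, and the cause was not tested. With scaling on 4 myeloid genes, the pan-myeloid difference was -0.15 for Olfml3 and -0.00046 for Fcrls in APP/PS1 against WT, -0.016 for Fcrls in APP/PS1+N-AS against WT and 0.011 for Gpr34 in APP/PS1+N-AS against APP/PS1. With the block, Siglech was at 0.13 (APP/PS1 against WT) and Olfml3 at -0.017 (APP/PS1+N-AS against APP/PS1), and with library numbers Siglech was at 0.031. On the TMM scale Selp was at 0.10 with limma, 0.12 with the block and 0.096 with library numbers, Mef2c at 0.074 with limma and 0.016 with the block, and Olfml2a at 0.024 with limma and 0.060 with library numbers. Without a library, ranges in APP/PS1 against WT on the TMM scale were -0.56 to 0.081 for Cx3cl1, -0.29 to 0.41 for Mef2c, -0.54 to 0.13 for Olfml2a, -0.61 to 0.41 for Selp and -0.16 to 0.60 for Slc2a1, and in APP/PS1+N-AS against WT -0.16 to 0.44 for Slc2a5. On the pan-myeloid scale they were -0.12 to 0.060 for Gpr34, -0.13 to 0.25 for Olfml3 and -0.25 to 0.31 for Siglech in APP/PS1 against WT. In APP/PS1+N-AS against APP/PS1 they were -0.046 to 0.20 for Cx3cr1, -0.021 to 0.21 for Olfml3, -0.28 to 0.087 for Siglech, -0.023 to 0.24 for Slc2a5 and -0.055 to 0.049 for Sparc, and in APP/PS1+N-AS against WT -0.034 to 0.19 for Fcrls, -0.039 to 0.34 for Olfml3 and -0.33 to 0.18 for Siglech.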
